A study of Mus musculus with 96 samples.

Results

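Mitochondrial carriers and accessory proteins for heme synthesis and iron-sulfur clusters were followed as 8 genes, Slc25a37, Slc25a28, Slc25a38, Slc25a39, Abcb10, Abcb6, Tmem14c and Glrx5, chosen by gene symbol from the 49466 genes of the count table. All 8 were present, each as 1 row. The data were read counts from single erythroid progenitors of fetal liver, obtained by Smart-seq2, which copies polyadenylated RNA of 1 cell into full-length cDNA. The 96 wells of 1 plate held 24 cells from each of 4 sort gates. In order of maturation these were BFUE (burst-forming units), a lower intermediate gate at 25 to 35% of CD71/CD24 expression, an upper intermediate gate at 50 to 60%, and CFUE (colony-forming units). The strain was C57/Bl6J and the age embryonic day 14.5 in all gates, and the labels give no genotype, treatment, sex or number of embryos. All cells came from a fraction depleted with antibodies to CD3e, CD45R, Ly-6G, CD11b, Ter119, Sca-1, CD16/32 and CD41 and stained for Kit, CD71 and CD24. CD71 and CD24 set the gates, so their genes are no findings. Since the labels name no animal, each gate is 1 sample, cells are not replicates, and differences between gates carry no p-value.

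Heme is built by enzymes that lie partly in the mitochondrial matrix and partly in the cytosol, so its intermediates and cofactors have to cross the mitochondrial membranes. Iron and glycine enter the mitochondrion at the start of the pathway, porphyrin intermediates leave and return, and iron joins protoporphyrin at the last step. Iron-sulfur clusters are assembled in the same matrix from the same iron supply, and in red cell precursors the cluster supply also governs the iron-responsive control of heme synthesis.

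Cells of at least 50000 reads were retained, which left 91 (23 BFUE, 21 lower intermediate, 24 upper intermediate and 23 CFUE) of 947458 to 3785903 reads and a median of 9363 genes. Each gate filled 3 plate columns, so gate and plate column cannot be told apart. Within the BFUE gate 8 cells held 1036 to 2202 CPM (reads of a gene after scaling the total to 1000000) of Cd34, a gene of early progenitors, and 15 held at most 5.16 CPM. They are called Cd34-high and Cd34-low here, divided at 100 CPM. The BFUE label went against the markers in the Cd34-high cells. The 7 erythroid markers other than Tfrc, the gene of the sorted CD71, summed to 42.9 CPM in Cd34-high and 1393 CPM in Cd34-low cells, with at most 99.6 CPM in any Cd34-high and at least 724 CPM in any Cd34-low cell. The 6 neutrophil and monocyte markers summed to 2654 CPM in Cd34-high and 31.7 CPM in Cd34-low cells, with single cells at 294 to 6989 and 1.32 to 88.7 CPM. Most of this sum in Cd34-high cells was Mpo, at 2366 CPM, while Ctsg was at 5.26 and Cebpa at 4.26 CPM. The 5 lymphoid markers summed to 804 CPM in Cd34-high and 1.30 CPM in Cd34-low cells, with Dntt and Cd3e at 0 in both. Ighm made up 693 CPM of the Cd34-high sum, and single Cd34-high cells ranged from 0.576 to 1579 CPM. Elane was at 0 in both, and Ctsg and Cebpa in the Cd34-low cells. Along the 3 later gates the erythroid sum was 1848, 2508 and 4062 CPM, and the neutrophil and monocyte sum at most 8.02 CPM. Comparisons with BFUE therefore use all 23 cells, and their counts and main ratios are also given with the 15 Cd34-low cells.

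Levels below are CPM of the reads summed over the cells of a group. A gene was measured in a comparison when it had 10 CPM or more in either group, and was called higher or lower at a 1.5-fold or larger ratio. Intervals are exact, at 95%, and cover counting error alone. Reads were not tagged by molecule, so several can stem from a single transcript.

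From BFUE to CFUE most of the 8 genes were higher. In CFUE over all BFUE cells 6 of the 7 measured members were called higher and 0 lower. Their median log2 ratio was 1.57, and that of all 8701 genes measured was -0.14. Of those genes 13.7% were called higher and 29.6% lower. Against the Cd34-low BFUE cells alone 6 of 7 were again higher and 0 lower, with a median of 1.19 against -0.11 over 8246 genes, of which 13.6% were higher and 24.9% lower. In plate rows A to D alone 5 of 6 measured members were higher over all BFUE cells and 4 of 6 over the Cd34-low cells, since Abcb6 was below 10 CPM there and Slc25a37 was called over all BFUE cells alone. At a 2-fold threshold 5 were higher over the Cd34-low cells. Over all rows the 6 were Abcb10, Slc25a38, Abcb6, Slc25a37, Tmem14c and Glrx5 in both comparisons. Slc25a39 was measured but not called, and Slc25a28 stayed below 10 CPM in every gate. The plot of CPM in each cell shows the 8 patterns side by side.

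**Figure D1:**
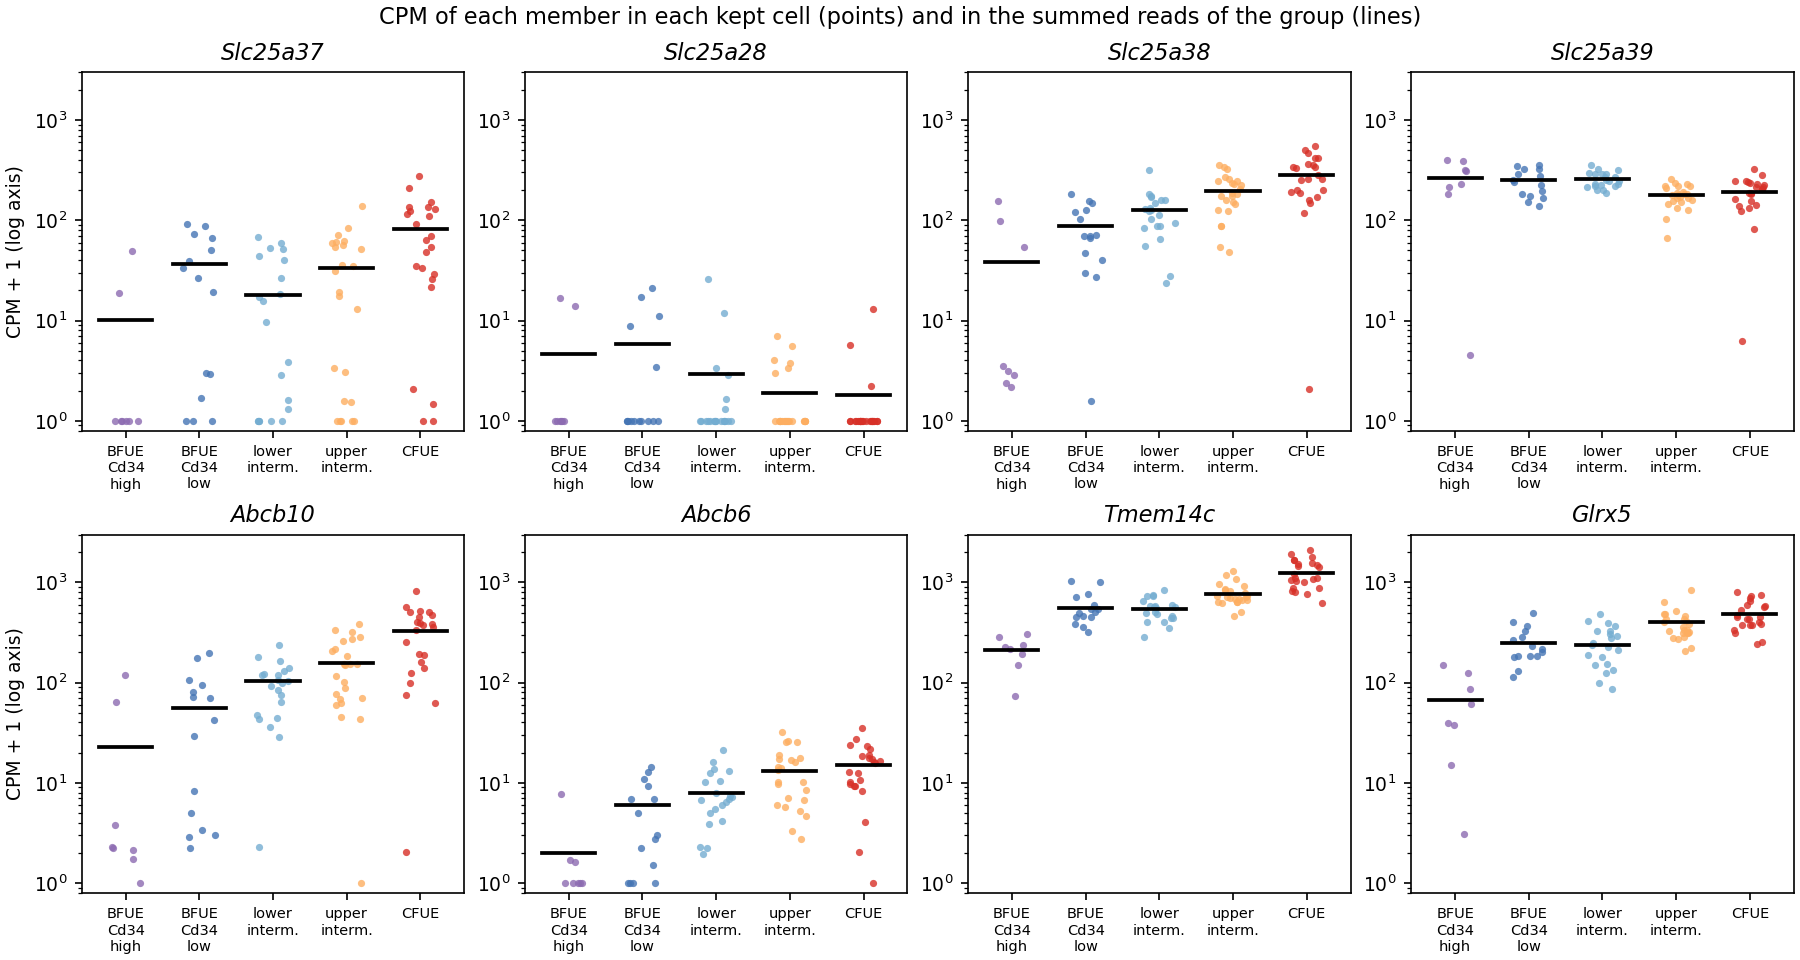
CPM plus 1 (log axis) of the 8 members in each kept cell, with 1 point per cell and a line for the CPM of the group's summed reads, for Cd34-high BFUE (8 cells), Cd34-low BFUE (15), lower intermediate (21), upper intermediate (24) and CFUE (23). Tmem14c and Glrx5 form compact clouds in every gate after the Cd34-high cells, Slc25a37 spreads from 0 to 277 CPM within CFUE, and Slc25a39 lies at 177 to 257 CPM in the summed reads of the 4 gates.

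The members called at each step differed. In the lower intermediate gate over all BFUE cells 2 of 6 measured members were higher and 1 lower (median log2 ratio 0.30, against -0.07 over 8605 genes, 10.1% of them higher and 24.3% lower). Over the Cd34-low BFUE cells 1 was higher and 1 lower (median -0.01, against -0.05 over 8163 genes, 9.54% higher and 17.7% lower). In the upper over the lower intermediate gate 5 of 7 were higher and 0 lower (median 0.63, against -0.02 over 7807 genes, 7.34% higher and 9.27% lower). In CFUE over the upper intermediate gate 3 of 7 were higher and 0 lower (median 0.54, against -0.01 over 7743 genes, 7.98% higher and 9.7% lower). Neighbouring comparisons share a gate.

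Sequence upstream of the start was shown for 4 members, because they took different courses: Abcb10 and Slc25a38 had the largest CFUE to BFUE ratios, Tmem14c the highest level, and Slc25a28 a ratio below 1. RefSeq entries (GRCm38.p6) were matched by symbol for 7 of the 8 members, Slc25a37 being without one, and the 250 bases before each start were read 5' to 3' on the gene's strand. Capitals mark matches, on either strand, to 2 motifs of erythroid factors. They are the GATA motif (AGATAA, with T also allowed as its first base and G as its last) and the KLF CACCC box (CCNCNCCC), whose letters also cover many GC boxes.
Abcb10, chr8:123983123-123983372, minus strand: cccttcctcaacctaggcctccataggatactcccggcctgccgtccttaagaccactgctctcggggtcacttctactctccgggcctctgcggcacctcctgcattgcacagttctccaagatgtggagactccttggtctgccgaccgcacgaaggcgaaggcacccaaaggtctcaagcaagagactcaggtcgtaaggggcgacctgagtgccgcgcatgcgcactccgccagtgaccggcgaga
Slc25a38, chr9:120110132-120110381, plus strand: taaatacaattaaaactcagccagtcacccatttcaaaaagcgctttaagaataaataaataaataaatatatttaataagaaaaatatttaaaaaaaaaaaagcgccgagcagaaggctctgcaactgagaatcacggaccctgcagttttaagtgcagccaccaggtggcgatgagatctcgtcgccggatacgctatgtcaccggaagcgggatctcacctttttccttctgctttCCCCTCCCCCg
Tmem14c, chr13:41016000-41016249, plus strand: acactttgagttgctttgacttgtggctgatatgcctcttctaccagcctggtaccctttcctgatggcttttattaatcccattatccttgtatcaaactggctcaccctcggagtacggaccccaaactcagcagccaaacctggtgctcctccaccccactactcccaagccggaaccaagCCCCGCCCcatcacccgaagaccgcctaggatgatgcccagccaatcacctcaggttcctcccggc
Slc25a28, chr19:43674882-43675131, minus strand: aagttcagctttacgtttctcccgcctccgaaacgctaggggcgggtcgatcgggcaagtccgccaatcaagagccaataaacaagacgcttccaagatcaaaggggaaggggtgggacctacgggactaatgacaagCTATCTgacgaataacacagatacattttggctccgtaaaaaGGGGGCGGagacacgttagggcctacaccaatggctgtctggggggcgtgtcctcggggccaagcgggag
The GATA letters were found in 1 of the 7 windows, that of Slc25a28, and in 26.5% of 32851 such windows of all genes. The CACCC letters were found in 5 of 7, in Slc25a28 (1 match), Slc25a38 (2 overlapping matches), Slc25a39 (4), Abcb6 (4, 2 of them overlapping) and Tmem14c (1), and in 45.9% of all windows. Abcb10 and Glrx5 held neither. The letters TGANTCA (NF-E2 and AP-1, 6.75% of all windows) and CACGTG (USF and Myc, 6.02%) were in none of the 7. A match describes letters in this window only.

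Iron import into the matrix is the task of the mitoferrins. Slc25a37 (chromosome 14, 69241848 to 69285112, minus strand, GRCm38) encodes mitoferrin 1, the main iron importer of erythroid mitochondria. It was at 27.2, 16.9, 32.2 and 80.5 CPM from BFUE to CFUE. Among BFUE cells it was at 9.19 CPM in Cd34-high and 35.4 CPM in Cd34-low cells. It was the only member called lower at any step. The lower intermediate gate was 1.61-fold below all BFUE cells (1.45 to 1.79) and 2.10-fold below the Cd34-low cells (1.88 to 2.34). CFUE was 2.96-fold above all BFUE cells (2.76 to 3.18) and 2.28-fold above the Cd34-low cells (2.11 to 2.45). The step of CFUE over the upper intermediate gate was the larger of the later ones, at 2.50-fold (2.33 to 2.67), after 1.91-fold (1.72 to 2.12) for the upper over the lower intermediate gate. The antisense genes Gm31748 and Gm27223 share 381 and 92 bases of its exons and were listed at 0 reads in the 4 gates.

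Cells of a gate differed widely in Slc25a37. The lowest, median and highest cells were at 0, 2.01 and 91.5 CPM in BFUE, at 0, 8.71 and 66.5 CPM in the lower intermediate, at 0, 24.1 and 139 CPM in the upper intermediate, and at 0, 63.4 and 277 CPM in CFUE. The ranges overlapped in every comparison, and 9 of 23 CFUE cells lay above every BFUE cell. No read was found in 9 BFUE, 6 lower intermediate, 5 upper intermediate and 2 CFUE cells. After thinning every cell to 500000 reads a read remained in 52.2, 71.4, 70.8 and 82.6% of cells in that order. The median cell was lower in all BFUE cells than in the lower intermediate gate while the sum was higher, but in the Cd34-low cells alone the median, 25.4 CPM, was also above the 8.71 CPM of the lower intermediate gate. The deepest BFUE cell, in well D3 with 3785903 reads, held 23.7% of the BFUE reads of Slc25a37. Without that cell, with the mean of per-cell CPM and with thinned counts the dip below all BFUE cells was no longer called (log2 ratios of -0.45, -0.34 and -0.20, against -0.69). Below the Cd34-low cells the log2 ratio lay between -1.13 and -0.64 under the alternatives run.

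The rise of Slc25a37 in CFUE also depended on plate rows. CFUE was at 37.8 CPM in rows A to D (11 cells) and 119 CPM in rows E to H (12 cells), while the upper intermediate gate was at 37.6 and 27.1 CPM in the same rows. The log2 ratio of CFUE over the upper intermediate gate was 0.01 in the upper rows A to D and 2.13 in the lower rows E to H. Against Cd34-low BFUE cells it was 0.16 and 1.68. Aurka, a mitotic kinase, moved with this split, at 179 CPM in rows A to D and 422 CPM in rows E to H of CFUE, and its part in the difference was not tested.

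Slc25a28 (chromosome 19, 43663801 to 43674881, minus strand) encodes mitoferrin 2, the paralogue used outside the erythroid lineage. It was low, at 4.45, 1.90, 0.879 and 0.790 CPM from BFUE to CFUE, in 170, 59, 32 and 28 reads. CFUE was 5.64-fold below BFUE (3.76 to 8.74), and 6.14-fold below the Cd34-low cells (4.05 to 9.60), without a call because no gate reached 10 CPM. Reads were found in 7 of 23 BFUE, 6 of 21 lower intermediate, 6 of 24 upper intermediate and 3 of 23 CFUE cells, and the median cell was at 0 in each gate. A single cell held 67.9% of its CFUE reads and 62.7% of its lower intermediate reads.

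Per kilobase of exon the balance of the mitoferrins moved to mitoferrin 1. Slc25a37 stood at 1.59 times the level of Slc25a28 in Cd34-high BFUE cells and at 4.54 times in Cd34-low BFUE cells. The ratio was 5.53 in the lower intermediate gate, 22.8 in the upper intermediate gate and 63.4 in CFUE. Its share of the summed mitoferrin level was 79.2% in all BFUE cells, 84.7 and 95.8% in the intermediates and 98.4% in CFUE. Of the cells, 3 BFUE, 1 lower intermediate, 0 upper intermediate and 0 CFUE held reads of Slc25a28 alone. The last ratio has 28 CFUE reads of Slc25a28 behind it, so its size is uncertain. The ratio of the Cd34-high cells is uncertain too. Of those 8 cells, 2 held reads of Slc25a37, 2 held reads of Slc25a28 and 5 held neither.

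**Figure D2:**
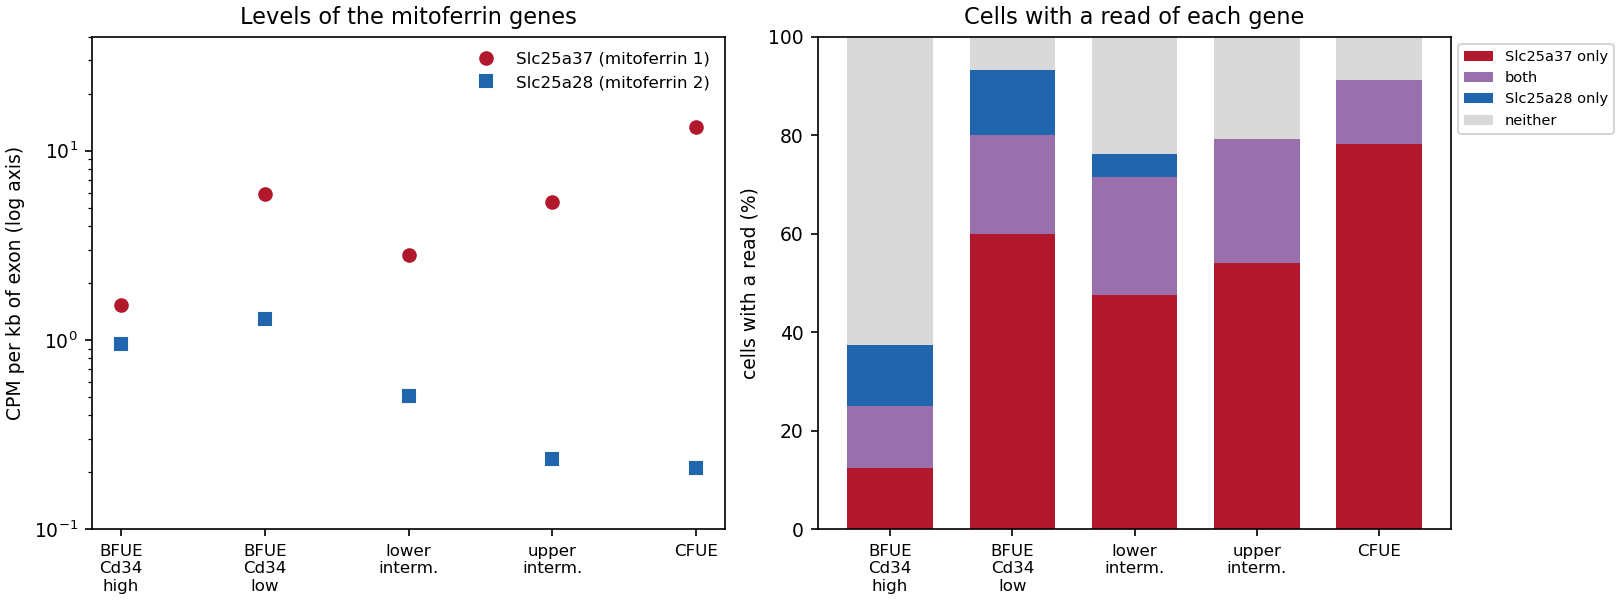
Left, CPM per kilobase of exon (log axis) of Slc25a37 and Slc25a28 in the summed reads of each group, and right, the percentage of cells with a read of either gene. The levels lie 63.4-fold apart in CFUE and 1.59-fold apart in Cd34-high BFUE cells, where 5 of 8 cells held neither gene. Cells with Slc25a28 alone are absent from the 2 later gates.

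Glycine and glutathione carriers took separate courses. Slc25a38 (chromosome 9, 120110374 to 120124504, plus strand) encodes the glycine importer that feeds the entry step of heme synthesis, and its loss causes congenital sideroblastic anaemia in humans. It was at 71.0, 126.5, 196 and 285 CPM from BFUE to CFUE, higher in each gate than in the gate before. CFUE was 4.02-fold above all BFUE cells (3.85 to 4.19) and 3.30-fold above the Cd34-low cells (3.15 to 3.45). On the log2 scale the steps were 0.83, 0.63 and 0.54, the last of them short of a call. Over the Cd34-low cells the lower intermediate gate was not called either, at 0.55. In plate rows A to D alone the steps, starting from all BFUE cells, were 0.37, 0.58 and 0.69, and only the last was called. The lowest, median and highest cells were at 0.587, 66.1 and 184 CPM in BFUE, and at 22.5, 122 and 314 CPM in the lower intermediate. They were at 47.5, 183 and 354 CPM in the upper intermediate, and at 1.06, 260 and 553 CPM in CFUE. A read was present in all 91 cells, and 18 of 23 CFUE cells lay above every BFUE cell.

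Slc25a39 (chromosome 11, 102402985 to 102407946, minus strand) encodes the carrier that brings glutathione into mitochondria. It was abundant but was called at no step, at 256, 257, 177 and 193 CPM from BFUE to CFUE. CFUE was 1.33-fold below all BFUE cells (1.29 to 1.37), short of a call. The largest step lay between the intermediates, with a log2 ratio of -0.54 (-0.59 to -0.49) for the upper over the lower gate, and 16 of 24 upper cells lay below every lower intermediate cell. In plate rows E to H alone that step was called, at 174 CPM in the upper and 278 CPM in the lower gate. The lowest, median and highest cells were at 65.9, 178 and 257 CPM in the upper gate and at 187, 245 and 358 CPM in the lower. In CFUE they were at 5.28, 202 and 326 CPM, and in BFUE at 3.51, 243 and 399 CPM. The ratio of CFUE to BFUE kept its direction and stayed without a call under all alternatives run, between -0.43 and -0.30 on the log2 scale.

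The ABC transporters of the set are Abcb10 and Abcb6. Abcb10 (chromosome 8, 123952459 to 123983122, minus strand) encodes an inner-membrane transporter that binds and stabilises mitoferrin 1. It had the largest CFUE to BFUE ratio of the 8 genes, at 44.4, 102, 156 and 328 CPM from BFUE to CFUE. CFUE was 7.38-fold above all BFUE cells (7.01 to 7.77) and 5.98-fold above the Cd34-low cells (5.66 to 6.32). It was called higher at each step, at 2.30-fold for the lower intermediate gate over all BFUE cells (1.86-fold over the Cd34-low cells), 1.53-fold between the intermediates and 2.11-fold for CFUE over the upper intermediate gate. For single cells the lowest, median and highest values were 0, 7.21 and 197 CPM in BFUE, 1.27, 98.2 and 235 CPM in the lower intermediate, 0, 150 and 380 CPM in the upper intermediate and 1.06, 358 and 821 CPM in CFUE. In CFUE 14 of 23 cells lay above every BFUE cell. Like Slc25a37 it split by plate rows in CFUE, with 212 CPM in rows A to D and 432 CPM in rows E to H. The last step was not called in rows A to D, at a log2 ratio of 0.31, against 1.62 in rows E to H. In rows E to H the step between the intermediates was not called, at 0.24, nor was the lower intermediate gate over the Cd34-low cells, at 0.34. Abcb10 shares 444 bases of exon with the antisense gene Gm45890, which held at most 11 reads in any gate. Whether strand was used in counting is not given in the sources used here.

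Abcb6 (chromosome 1, 75171717 to 75180392, minus strand) encodes a porphyrin transporter that carries the Lan blood group in humans. It was the lowest of the higher members, at 3.77, 6.89, 12.2 and 13.96 CPM from BFUE to CFUE. CFUE was 3.70-fold above all BFUE cells (3.07 to 4.49) and 2.77-fold above the Cd34-low cells (2.28 to 3.39). Rows differed here too, with a log2 ratio over all BFUE cells of 0.70 in rows A to D, where CFUE was at 9.57 CPM and so not called, and 3.39 in rows E to H. Over the Cd34-low cells these ratios were 0.33 and 2.91. The log2 ratios of the steps were 0.87, 0.83 and 0.19, of which the first, 0.45 over the Cd34-low cells, lay below the 10 CPM needed for a call and the last was not called. Reads were found in 14 of 23 BFUE cells and in 21 of 21, 24 of 24 and 22 of 23 cells of the later gates. The lowest, median and highest cells were at 0, 14.6 and 34.4 CPM in CFUE and at 0, 0.701 and 13.5 CPM in BFUE, and 12 of 23 CFUE cells lay above every BFUE cell. A predicted gene on its strand, Gm29253, shares 2932 bases of its exons and was listed at 0 reads in the 4 gates. How reads shared between genes were counted is not given in the sources used here, so the level of Abcb6 is uncertain.

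Tmem14c (chromosome 13, 41016292 to 41022586, plus strand) encodes an inner-membrane protein that helps protoporphyrinogen into the matrix for the last steps of the pathway. It had the highest level of the 8 genes in every gate, at 449, 547, 771 and 1246 CPM. CFUE was 2.77-fold above all BFUE cells (2.72 to 2.82) and 2.23-fold above the Cd34-low cells (2.19 to 2.27). The lower intermediate gate did not lie above the Cd34-low cells (0.978-fold). The later steps were 1.41-fold between the intermediates, without a call, and 1.62-fold in CFUE over the upper intermediate gate, which was called. In rows A to D alone the last step fell just short of a call, at 1086 CPM in CFUE and 731 CPM in the upper intermediate gate. Single cells had a minimum, median and maximum of 72.9, 453 and 1033 CPM in BFUE, of 285, 550 and 844 CPM in the lower intermediate, of 463, 712 and 1305 CPM in the upper intermediate and of 626, 1110 and 2113 CPM in CFUE. All 23 CFUE cells lay above the BFUE median, and 15 above every BFUE cell.

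Glrx5 (chromosome 12, 105032688 to 105042906, plus strand) encodes a monothiol glutaredoxin that passes on newly made iron-sulfur clusters, and its loss in the zebrafish mutant shiraz blocks heme synthesis. It was at 191, 237, 397 and 485 CPM from BFUE to CFUE. CFUE was 2.54-fold above all BFUE cells (2.47 to 2.61) and 1.95-fold above the Cd34-low cells, at a log2 ratio of 0.97. The lower intermediate gate was at 0.955 times the Cd34-low cells over all rows (0.924 to 0.988), from opposite values in the rows. Over all rows its largest step lay between the intermediates, at 1.68-fold (1.63 to 1.72), and CFUE over the upper intermediate gate was not called, at 1.22-fold. In rows A to D the step between the intermediates was smaller than the one from BFUE and not called, at 370 over 284 CPM. In rows E to H it was at 422 over 191 CPM. Its minimum, median and maximum over cells were 2.10, 182 and 488 CPM in BFUE, 85.4, 238 and 479 CPM in the lower intermediate, 207, 347 and 840 CPM in the upper intermediate and 239, 449 and 797 CPM in CFUE. In rows A to D Glrx5 was at 284 CPM in the lower intermediate gate, against 149 CPM in all BFUE and 178 CPM in Cd34-low cells. In rows E to H it was at 191 CPM in the lower intermediate gate, against 232 CPM in all BFUE and 319 CPM in Cd34-low cells. Over the Cd34-low cells both pass 1.5-fold, in opposite directions.

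**Figure D3:**
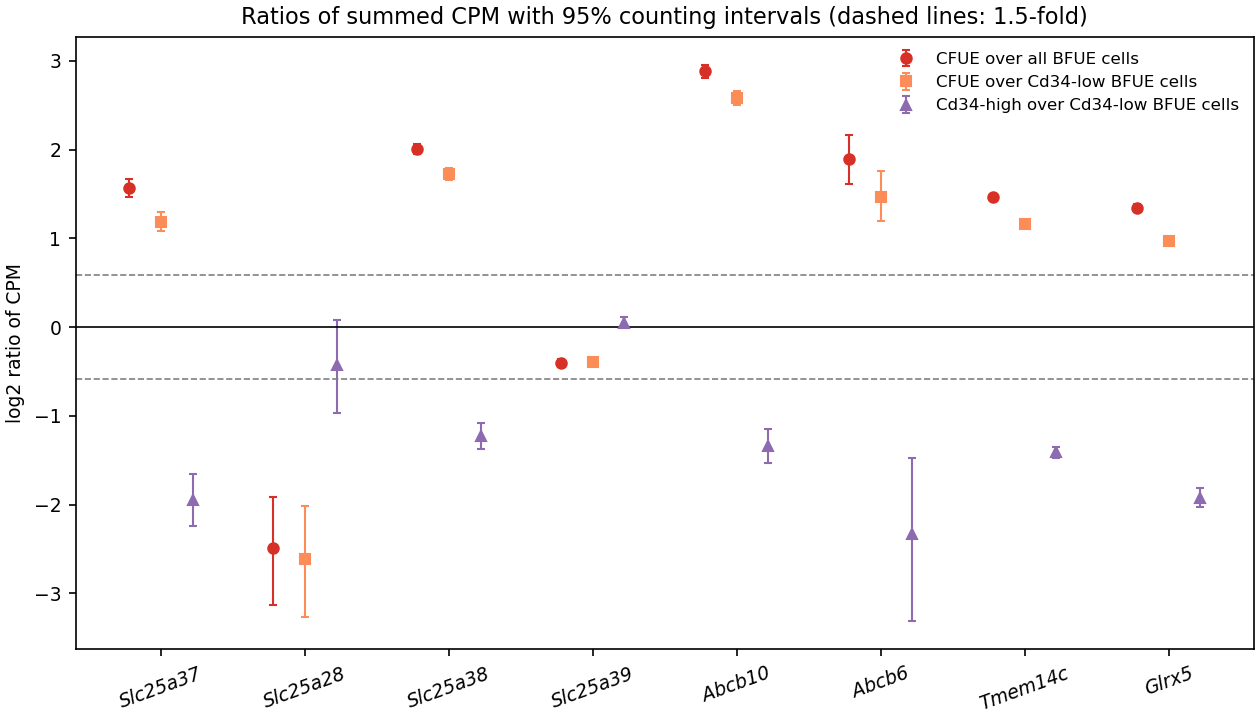
Log2 ratio of summed CPM of each member for CFUE over all BFUE cells, CFUE over Cd34-low BFUE cells and Cd34-high over Cd34-low BFUE cells, with bars for 95% counting intervals and dashed lines at 1.5-fold. Abcb10 has the largest positive ratio (2.88 over all BFUE cells), Slc25a39 lies inside the dashed lines in each of the 3 comparisons, and the Cd34-high cells lie below the Cd34-low cells in 5 called members.

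The Cd34-high cells of the BFUE gate held less of most members. In Cd34-high over Cd34-low cells 0 of 6 measured members were higher and 5 lower. Their median log2 ratio was -1.38, against 0.03 over 9224 genes, of which 30.4% were higher and 25.4% lower. Slc25a37 was 3.85-fold lower (3.16 to 4.74), Glrx5 3.79-fold (3.52 to 4.09), Tmem14c 2.66-fold (2.55 to 2.78), Abcb10 2.53-fold (2.22 to 2.90) and Slc25a38 2.34-fold (2.11 to 2.59). Tmem14c was at 72.9 to 301 CPM in the 8 Cd34-high and 322 to 1033 CPM in the 15 Cd34-low cells, the only member whose ranges did not overlap. How many of all genes had separate ranges in these cells was not counted, so this only describes Tmem14c. For Slc25a39 the levels were 261 CPM in Cd34-high and 253 CPM in Cd34-low cells, with overlapping ranges. Single cells carried much of what the Cd34-high cells held of the others: 71.8% of Slc25a37 reads lay in well F1, 62.2% of Abcb10 reads in well B1 and 47.2% of Slc25a38 reads in well B2. In rows A to D alone Abcb10 was higher in Cd34-high cells, at 44.2 CPM in Cd34-high and 16.2 CPM in Cd34-low cells. Slc25a38 was not called in those rows, at 76.7 CPM in Cd34-high and 91.3 CPM in Cd34-low cells, while in rows E to H its log2 ratio was -5.56. The markers of other cell types given above moved with this comparison, and their part in it was not tested.

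On a scale per kilobase of exon (all annotated exons of GENCODE M21) the order of the 8 genes changed along the gates. In CFUE it was Tmem14c at 1363 CPM per kilobase, Glrx5 at 132, Slc25a38 at 104, Abcb10 at 76.1, Slc25a39 at 69.9, Slc25a37 at 13.4, Abcb6 at 2.63 and Slc25a28 at 0.211. In BFUE it was Tmem14c at 492 CPM per kilobase, Slc25a39 at 92.8, Glrx5 at 51.8, Slc25a38 at 25.8, Abcb10 at 10.3, Slc25a37 at 4.51, Slc25a28 at 1.19 and Abcb6 at 0.71. Slc25a39 held the fifth place in CFUE and the second in BFUE, and Abcb6 and Slc25a28 changed places. Of 28 pairs of neighbours in the orders of the 4 gates, 25 had ranges over cells that overlapped. The exceptions were Tmem14c above the next gene in the lower intermediate, upper intermediate and CFUE gates.

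The other genes of heme synthesis and cluster assembly were called by the same rule in CFUE over all BFUE cells, beside the background given above for that comparison. Of 9 heme synthesis enzymes 8 were higher and 1 lower, and their median log2 ratio was 2.17. Over the Cd34-low cells the counts were again 8 and 1, with a median of 1.69. Alas2, the erythroid entry enzyme, was at 30.7 CPM in CFUE and 0.0786 CPM in BFUE, where it had 3 reads, a ratio of 391 (133 to 1897). Leaving aside the CFUE cell of well D10, at 1.06 CPM, the lowest, median and highest CFUE cells held 0, 0.704 and 252 CPM. The summed level of Alas2 thus came from a part of the CFUE cells. Uros was 7.82-fold and Ppox 4.83-fold higher in CFUE, both enzymes downstream of the entry step. The lower one was Alas1, the entry enzyme of other tissues, at 20.8 CPM in CFUE and 47.8 CPM in BFUE, named after its value was seen.

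Of 19 measured genes of iron-sulfur cluster assembly 6 were higher and 2 lower, with a median of 0.40, and over the Cd34-low cells 5 and 2, with a median of 0.23. Bola3, which helps deliver clusters to target proteins, was 2.60-fold higher, and Isca1, a late assembly factor, 2.06-fold. Fdxr, the ferredoxin reductase, was 2.30-fold lower, at 19.1 CPM in CFUE and 43.9 CPM in BFUE. Of 8 measured carriers and binders of heme and porphyrin outside the set 3 were higher and 0 lower: Hebp1, a heme-binding protein, at 7.28-fold, Slc25a40, the paralogue of Slc25a39, at 2.95-fold, and Abcg2, a plasma membrane porphyrin exporter, at 2.33-fold. Over the Cd34-low cells the counts were 3 and 0 as well. Of 8 iron-sulfur proteins 3 were higher and 0 lower: Fech, the enzyme that inserts iron, at 4.51-fold, Ndufs1 of respiratory complex I at 2.16-fold and Lias, lipoyl synthase, at 1.68-fold. Over the Cd34-low cells 2 were higher, Lias being at 1.39-fold without a call, and 1 was lower, the aconitase Aco1 at 1.54-fold.

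The Slc25a family beyond the set did not share a direction. Of its 28 measured genes 5 were higher and 8 lower in CFUE over BFUE (median log2 ratio -0.08). Over the Cd34-low cells 7 of 29 were higher and 6 lower (median -0.22). Slc25a45 was 22.2-fold lower, at 2.48 CPM in CFUE and 55.0 CPM in BFUE, but Cd34-low cells held 5.34 CPM, too low for a call. Slc25a21, a carrier of oxodicarboxylates, was 4.12-fold higher, Slc25a40 2.95-fold and Slc25a42, a carrier of coenzyme A, 2.75-fold. Slc25a40 counts in both lists.

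Within gates, cells with more Abcb10 tended to hold more Fech, the enzyme of the last step. Spearman rho over the cells of a gate was averaged over the 4 gates, and it stays a description of cells that share a plate and differ in depth. The BFUE rhos pool Cd34-high and Cd34-low cells, and the part of that split in them and in the means was not tested. Among its nearest of 4033 genes of sufficient level, Abcb10 had a mean rho of 0.54 with Fech and 0.53 with Gid8. Its rho with Fech was 0.47 in BFUE, 0.32 in the lower intermediate, 0.65 in the upper intermediate and 0.73 in CFUE. Like Abcb10, Fech was higher in plate rows E to H of CFUE, at 995 CPM, than in rows A to D, at 705 CPM. The part of plate rows in the CFUE rho was not tested. Among the nearest genes of Tmem14c were Gid8 (0.54) and Car2 (0.52), a carbonic anhydrase of red cells. Over all 91 cells they included Prdx2 (0.79) and Nxpe2 (0.78). Rhos over all cells also take in the differences between gates.

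Mitotic genes were among those nearest to Slc25a37. Its 3 nearest genes within gates were Incenp (0.50), Cercam (0.48) and Aurka (0.48), of which Incenp and Aurka act in mitosis. Over all cells they were Aurka (0.58), Ift140 (0.55) and Cercam (0.55). Among the members Slc25a37 was closest to Abcb10, the partner of its protein, with a mean rho of 0.43. That rho was 0.77 in the 23 CFUE cells and 0.75 without the CFUE cell of well D10, and 0.26, 0.15 and 0.55 in the earlier gates. The mean rho was the highest of the 28 pairs of members. Among the heme synthesis enzymes plotted below, Slc25a37 reached 0.46 with Urod and 0.43 with Fech, and less with the others. A value of this size was thus not particular to Abcb10. In CFUE both genes and Aurka were higher in plate rows E to H than in rows A to D, as given above. So were Incenp (236 and 142 CPM), Cercam (252 and 132 CPM) and Ift140 (418 and 196 CPM). The part of plate rows in these rhos was not tested.

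**Figure D4:**
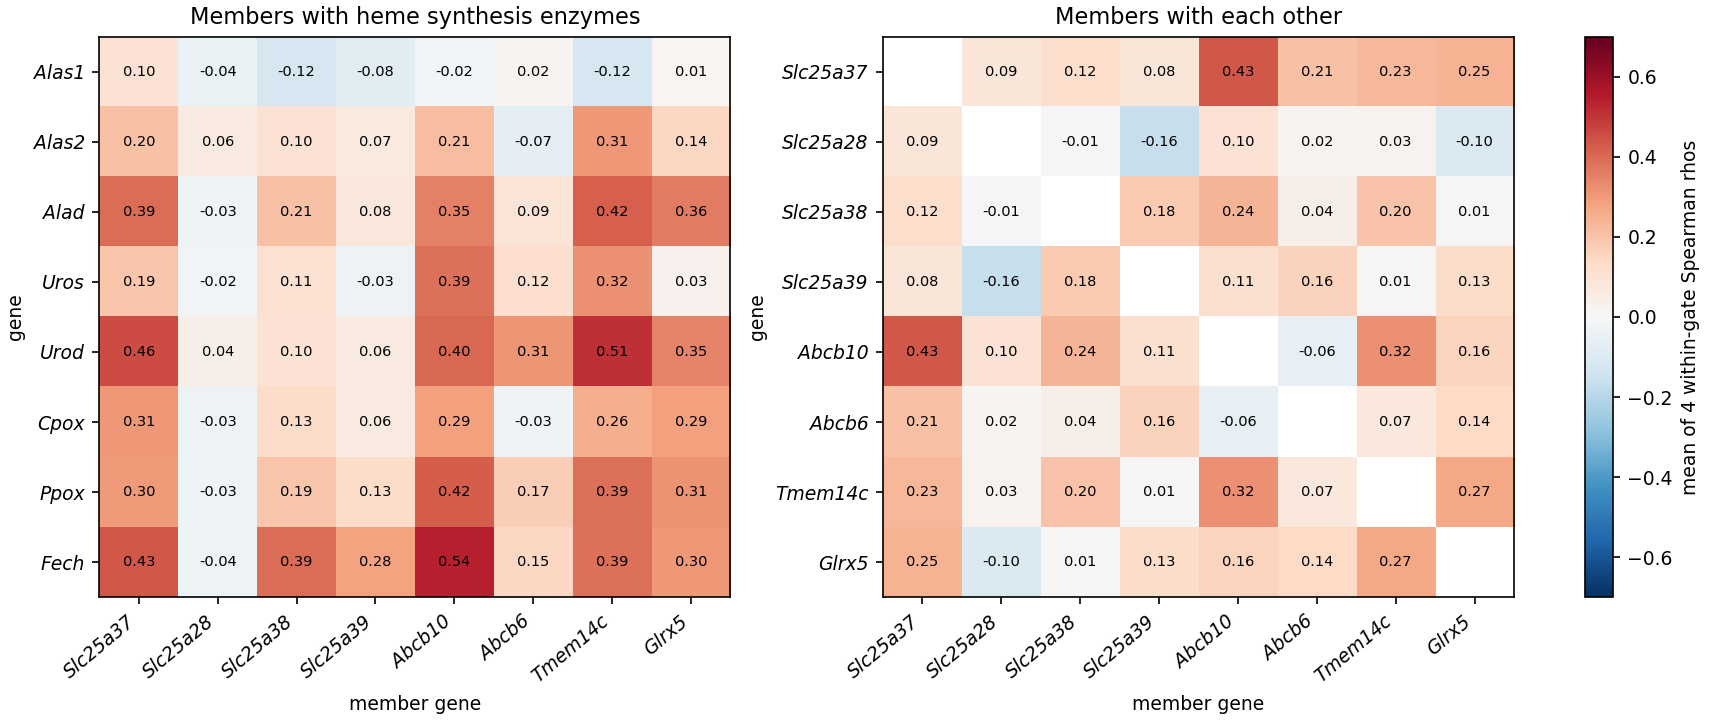
Mean of the 4 within-gate Spearman rhos of each member with 8 heme synthesis enzymes (left) and with the other members (right), over 91 cells. Abcb10 reaches 0.54 with Fech, and the Slc25a28 column lies between -0.04 and 0.06 on the left.

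Glrx5 kept other company. Its nearest genes within gates were Ybx1 (0.66), which encodes an RNA-binding protein, Gclm (0.63), a subunit of the enzyme that starts glutathione synthesis, and Tprgl (0.62), and over all cells Gclm (0.72), Hmgb3 (0.69) and Acp1 (0.69). With Gclm its rho was 0.83 in BFUE, 0.75 in the lower intermediate, 0.47 in the upper intermediate and 0.45 in CFUE. The BFUE value pools Cd34-high cells at 2.10 to 150 CPM of Glrx5 and Cd34-low cells at 113 to 488 CPM. Slc25a38 was nearest to Narf (0.46), Asns (0.41), which makes asparagine, and Tspo2 (0.41) within gates, and to Fth1 (0.75), the ferritin heavy chain, Asns (0.74) and Fech (0.74) over all cells. Within gates its mean rho was 0.38 with Fth1 and 0.39 with Fech. For Slc25a39 no gene passed 0.43 over all cells (Por, with a mean of 0.15 within gates) or 0.41 within gates (Rpa1). Abcb6 reached 0.59 over all cells (Ubac1) and 0.43 within gates (Pip4k2c). The nearest gene of Slc25a28 was Mipep on both measures, at 0.40 and 0.36, and with its few reads these values carry little.

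A single CFUE cell lay below all others in Slc25a38, Slc25a39 and Abcb10. This cell, of well D10, with 947458 reads the shallowest kept, held 1 read each of Slc25a37, Slc25a38, Abcb10 and Abcb6, 5 of Slc25a39 and 0 of Slc25a28. The other 22 CFUE cells held at least 116 CPM of Slc25a38, 80.4 CPM of Slc25a39 and 61.4 CPM of Abcb10. For Slc25a37, Abcb6 and Slc25a28 other CFUE cells were at 0, so the cell lay inside their range. Tmem14c at 1565 CPM and Glrx5 at 452 CPM in that cell lay inside the range of the other CFUE cells, at 626 to 2113 and 239 to 797 CPM. It had 6361 detected genes, against 7422 to 10246 in the others, and 5.14% of its reads were mitochondrial, against 1.10 to 4.21%. Without this cell 6 of 7 measured members were still called higher in CFUE over BFUE.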

How the data were processed

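The authors deposited whole-number read counts per gene, without normalisation, for 96 single cells. STAR 2.4, featureCounts and the build GRCm38 are named in the submitters' processing notes, and the annotation release, strand setting and treatment of shared reads were not given there. The table's first line holds 1 empty cell more than the data lines, so names and columns were paired in order, and 0 columns were left without a sample. Where a symbol had several identifiers (76 symbols), the most abundant was taken.

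The 91 cells with 50000 or more reads were summed per gate, and 5 wells of 10596 to 16644 reads were left out. The deposited counts of each sum were scaled to CPM, and ratios carry 95% Clopper-Pearson intervals, conditional on the reads of both groups. Where a group had 0 reads, 3 reads over the group were used in the ratio. Each gate being 1 sample, no test was made. Doublets were not called, each well being labelled as 1 cell. The ratio code was tested on simulated data. Exon lengths and coordinates came from GENCODE M21, which holds 99.7% of the identifiers.

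The text names all 8 members, up to 4 called genes per other list, and the 3 genes of highest Spearman rho per member among 4033 genes with 50 CPM or more and a read in 50% of cells or more, predicted genes and pseudogenes left out. Some genes that this rule names are not reported here. Genes named outside this rule, such as Alas1 and Gata1, were chosen after their values were seen. The members, lists, markers and comparisons were chosen with earlier results of these data known. Alternatives were TMM factors (edgeR 4.0.16), size factors (DESeq2 1.42.0), both in R 4.3.3, the mean of per-cell CPM, other filters on cells and genes, a 2-fold call, totals without globin, mitochondrial and ribosomal RNA genes, plate rows A to D and E to H, thinned counts and left-out cells. Scripts ran in Python 3.11.15 with scipy 1.17.1, pandas 2.3.3, numpy 2.4.6 and, for plots, matplotlib 3.10.9.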

Additional observations from a re-analysis of the deposited data

How the results depend on the processing

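No paired analysis was possible because each gate is 1 sample and the replicate numbers only name its cells. Of 623 recomputed log2 ratios of the members, 398 stayed inside their counting interval, 224 lay outside it and 1 call reversed, Abcb10 in Cd34-high over Cd34-low BFUE cells, at 1.45 in plate rows A to D against -1.34 over all rows. Of 184 recomputed counts of members called, 160 stayed within 1.5 times. In CFUE over BFUE the 6 higher became 5 in rows A to D, and over Cd34-low cells 4 in rows A to D and 5 at 2-fold. In both the 0 lower became 1 without the filter on low genes, which lets in Slc25a28. In the lower intermediate gate over BFUE the 2 higher became 1 at a 2-fold call, and the 1 lower became 0 with the mean of per-cell CPM, rows A to D, thinned reads, a 2-fold call or without the BFUE cell of well D3, and 2 without the filter. Over Cd34-low cells the 1 higher became 2 with TMM, DESeq2, rows A to D, the top cell of each member left out or without well D3, and 0 at 2-fold, and the 1 lower became 2 in rows E to H and without the filter. In the upper over the lower intermediate gate the 5 higher became 3 in rows A to D and 0 at 2-fold, and the 0 lower became 1 in rows E to H and without the filter. In CFUE over the upper intermediate gate the 3 higher became 1 in rows A to D. The member called there was Slc25a38, at 271 CPM in CFUE and 167 CPM in the upper intermediate gate. The members called over all rows, Slc25a37, Abcb10 and Tmem14c, were not called in rows A to D. In Cd34-high over Cd34-low cells rows A to D gave 1 higher and 3 lower, against 0 and 5. TMM raised the log2 ratios of CFUE over BFUE by 0.11. Leaving out the cells of wells D10 and D3 was chosen after seeing the data. The cause of these changes was not tested beyond what each setting removes. Few reads limit Slc25a28 and Abcb6, and a single sample per gate limits every comparison.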

Other observations

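The CFUE cell of well D10 also stood apart in genes outside the set. Gata1, the main erythroid transcription factor, was at 3.17 CPM in this cell and at 265 to 771 CPM in the other 22 CFUE cells. Klf1, another erythroid factor, was at 239 CPM in it and at 686 to 1437 CPM in the others. Fech at 349 CPM lay inside the range of the others, at 330 to 1540 CPM. These genes were chosen after the cell had been seen.

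The 5 wells left out for depth held 6 to 35 reads of the 8 members together, and 0 of Slc25a37 and Slc25a28.

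In CFUE all 8 members were higher in plate rows E to H than in rows A to D. How many of all genes were higher in those rows was not counted, so this only describes the members. For Slc25a38 the levels were 298 CPM in rows E to H and 271 CPM in rows A to D, for Slc25a39 196 and 189 CPM, for Tmem14c 1390 and 1086 CPM, and for Abcb6 17.9 and 9.57 CPM. Slc25a39 was thus nearly alike in both. Slc25a28 was at 1.13 and 0.416 CPM, from 28 CFUE reads of which 67.9% lay in well E10. The labels do not give the rows as separate samples.

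Markers of further cell types also differed within the BFUE gate. The 5 endothelial and stromal markers summed to 201 CPM in Cd34-high and 13.2 CPM in Cd34-low cells, with Cdh5 and Col1a1 at 0 in both. The 5 megakaryocyte markers summed to 323 CPM in Cd34-high and 254 CPM in Cd34-low cells, with Pf4 at 0 in both. The 4 mast cell and basophil markers summed to 35.2 and 0.0382 CPM in the same order, the 5 macrophage markers to 0.167 and 0.191 CPM, and the 6 hepatoblast markers to 203 and 226 CPM. The 6 early and multipotent markers summed to 3126 CPM in Cd34-high and 1049 CPM in Cd34-low cells. Cd34, which divided the cells, is among them, at 1404 and 1.56 CPM, so this difference was in large part set by the division. Of the others Flt3, Meis1 and Hlf were higher in Cd34-high cells. Gata2 went the other way, at 94.5 CPM in Cd34-high and 235 CPM in Cd34-low cells, and Kit was alike, at 757 and 764 CPM.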
